A study of Mus musculus with 60 samples.

Results

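The comparison described here set paxillin siRNA against scrambled (SC) siRNA in mouse primary cortical neurons kept for 5 days in vitro (DIV5) with brain-derived neurotrophic factor (BDNF). Its members were chosen by their labels alone, as every short-read library of paxillin siRNA or SC siRNA with BDNF at DIV5: 5 libraries of paxillin siRNA and 4 of SC siRNA, 9 of the 60 samples of the series and 9 of its 48 short-read cortical libraries. The series follows neurons and brain tissue over development to ask how paxillin and BDNF bear on RNA expression and splicing. All 9 libraries came from wild-type cells of E18 mouse cortex in Neurobasal medium, received BDNF at 20 ng/ml on DIV2 and received their siRNA on the same day, so the groups share everything the labels state except the siRNA. Paxillin siRNA was a pool of 2 siRNAs, and SC siRNA a non-targeting control, so that effects of these sequences on other transcripts and effects of paxillin loss cannot be told apart. Further libraries used here for comparison were paxillin siRNA (6) and SC siRNA (4) without BDNF at DIV5, and paxillin siRNA (4) and SC siRNA (3) with BDNF at DIV3. The labels number the libraries 1, 2, 4, 10 and 11 under paxillin siRNA and 1 to 4 under SC siRNA, and these are called culture 1 and so on below. They do not say that the numbers mark separate preparations, so the spread behind the p-values may be partly technical. For the limma tests that spread was shared over all 48 short-read cortical libraries, not the 9 alone. The exact test of Pxn used the 9.

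Paxillin is a scaffold protein of focal adhesions, where it binds kinases and adaptors such as Crkl downstream of integrins, and it also moves to the nucleus. BDNF acts through the receptor TrkB to drive survival, growth and synaptic maturation of cortical neurons. Much of what follows concerns the amino acid response, from which 4 of the called genes come. Its transcription factor ATF4 is made when amino acid shortage or other stress leads to phosphorylation of the translation factor eIF2, and it raises genes that synthesize amino acids, import them and load them onto tRNA. ATF4 binds, with C/EBP partners, a composite element in promoters of such genes.

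Promoters of 5 of these genes are printed to show what the element looks like in the list: Asns and Mthfd2 passed the test below, and Chac1, Slc1a4 and Gars stand for its stress genes, transporters and tRNA synthetases. Whether a match goes with the size of the siRNA difference was not tested. Each window runs from 250 bases before to 50 bases after an annotated start (RefSeq, GRCm38.p6) and is written 5′ to 3′ on the strand of the gene. Capitals mark matches to TGATGNAA, the core of the composite element, or to its reverse complement TTNCATCA. The windows are chr6:7693160-7693459 on the minus strand for Asns, chr2:119350992-119351291 on the plus strand for Chac1, chr11:20332664-20332963 on the minus strand for Slc1a4, chr6:55037751-55038050 on the plus strand for Gars and chr6:83317555-83317854 on the minus strand for Mthfd2.
Asns: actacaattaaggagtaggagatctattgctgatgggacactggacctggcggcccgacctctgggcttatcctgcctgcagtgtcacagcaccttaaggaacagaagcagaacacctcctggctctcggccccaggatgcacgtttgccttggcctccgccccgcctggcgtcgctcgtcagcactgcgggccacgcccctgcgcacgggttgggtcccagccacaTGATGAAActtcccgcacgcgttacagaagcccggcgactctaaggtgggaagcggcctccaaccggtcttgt
Chac1: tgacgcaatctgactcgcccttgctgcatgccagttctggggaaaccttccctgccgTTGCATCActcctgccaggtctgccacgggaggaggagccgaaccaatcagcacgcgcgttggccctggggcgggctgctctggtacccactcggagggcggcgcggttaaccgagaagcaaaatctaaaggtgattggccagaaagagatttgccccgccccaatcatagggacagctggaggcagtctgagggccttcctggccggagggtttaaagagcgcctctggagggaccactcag
Slc1a4: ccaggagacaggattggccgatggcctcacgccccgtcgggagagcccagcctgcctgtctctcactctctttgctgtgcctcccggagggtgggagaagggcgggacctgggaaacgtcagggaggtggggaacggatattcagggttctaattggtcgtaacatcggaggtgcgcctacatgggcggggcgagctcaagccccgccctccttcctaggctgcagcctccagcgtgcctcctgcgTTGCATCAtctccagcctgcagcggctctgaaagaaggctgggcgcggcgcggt
Gars: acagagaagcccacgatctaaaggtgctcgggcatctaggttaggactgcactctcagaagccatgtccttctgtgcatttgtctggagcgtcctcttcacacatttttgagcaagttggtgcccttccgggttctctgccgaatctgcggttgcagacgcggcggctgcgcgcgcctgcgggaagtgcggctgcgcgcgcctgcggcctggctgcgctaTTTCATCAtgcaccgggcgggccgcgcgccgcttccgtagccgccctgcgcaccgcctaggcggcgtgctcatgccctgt
Mthfd2: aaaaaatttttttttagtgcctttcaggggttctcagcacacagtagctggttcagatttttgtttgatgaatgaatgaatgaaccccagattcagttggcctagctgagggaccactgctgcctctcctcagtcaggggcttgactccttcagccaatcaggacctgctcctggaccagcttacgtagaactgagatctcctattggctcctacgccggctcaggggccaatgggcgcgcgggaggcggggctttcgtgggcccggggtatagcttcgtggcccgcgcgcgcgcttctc

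A match was present in the window of 17 of the 45 listed amino acid response genes that have one (37.8%), against 1219 of 27025 genes in the whole table (4.51%). The match began 23 bases before the start in Asns, 193 bases before it in Chac1, 4 bases before it in Slc1a4 and 30 bases before it in Gars, and the Mthfd2 window held none. That window lies inside the annotated extent of Mthfd2, which reaches upstream to 83326011, and the sequence there was not searched. The list holds genes known as ATF4 targets, so the share describes how the list was put together as well as the promoters. The other 11 listed genes, Slc7a5 and Cars among them, were without a window.

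Pxn, the targeted gene (chromosome 5, 115491970 to 115555987, GRCm38), was measured at 8.74, 13.8, 12.8, 9.43 and 10.3 TPM in cultures 1, 2, 4, 10 and 11 with paxillin siRNA, and at 14.3, 17.9, 10.0 and 19.0 TPM in cultures 1 to 4 with SC siRNA. TPM is a level per transcript length, with each library brought to an equal sum. The groups overlapped through SC culture 3, which lay below 3 of the 5 paxillin siRNA libraries. The paxillin siRNA mean was 11.004 ± 2.16 TPM (SD, n = 5) and the SC siRNA mean 15.3 ± 4.04 TPM (SD, n = 4). The log2 difference of -0.42 did not pass a 2-sided exact permutation test (p = 0.0794, where the smallest p this design allows is 0.0159). Without SC culture 3 the difference was -0.60 (exact permutation p = 0.0357, the smallest that design allows). Leaving it out removes the control that overlapped, which makes the groups separate and fixes that p-value, so no conclusion is drawn from it. Leaving out any other single library gave -0.50 to -0.31, with exact permutation p from 0.0857 to 0.179. The smaller level of the target mRNA was thus not separable from replicate spread over all 9 libraries, and the protein was not analysed here.

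SC culture 3 stood apart in the cell type markers as well. The summed level of 12 astrocyte markers was 1844, 2238, 1538, 1482 and 1907 TPM in cultures 1, 2, 4, 10 and 11 with paxillin siRNA, against 4731, 4759, 1622 and 6941 TPM in SC cultures 1 to 4. For 12 markers of the oligodendrocyte lineage the sums ran from 2191 to 4811 TPM with paxillin siRNA and were 7950.2, 10672, 1729.8 and 11671 TPM with SC siRNA. SC cultures 1, 2 and 4 were thus rich in glial transcripts, while SC culture 3 was like the paxillin siRNA libraries. Of 12 neuronal markers the sum was 2462 to 4606 TPM with paxillin siRNA, against 2085, 2024, 4754 and 1668 TPM with SC siRNA, so that here too SC culture 3 sat with, or above, the paxillin siRNA libraries.

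Gfap, the astrocyte intermediate filament, spanned 124 to 1024 TPM with paxillin siRNA and was 2897, 2774, 454 and 4304 TPM in SC cultures 1 to 4. The sum of 12 markers of dividing progenitors was 1121 to 1848 TPM with paxillin siRNA, against 1752 to 3607 TPM with SC siRNA, and that of 12 microglial markers 72.9 to 174 TPM and 100 to 335 TPM. Markers of endothelial and mural cells (8.35 to 19.9 TPM against 10.3 to 40.8 TPM), of fibroblasts and meninges (71.4 to 159.5 TPM against 84.5 to 218 TPM) and of red blood cells (1.27 to 4.46 TPM against 1.43 to 4.93 TPM) summed to low levels in either group. None of the markers of these lists was at 0 in all 9 libraries, and none passed the test between the siRNAs: 0 of 12 astrocyte, 0 of 12 oligodendrocyte lineage, 0 of 12 neuronal, 0 of 12 progenitor and 0 of 11 tested microglial markers were called by limma, while 1 lower, 2 lower, 4 higher, 3 lower and 0 of them had an unadjusted p under 0.05, where 5.14% of all genes tested were higher and 13.5% lower. In bulk RNA, fewer cells of a type and less RNA per cell cannot be told apart. The part of cell composition in the results below was not tested beyond the values given beside them.

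**Figure D1:**
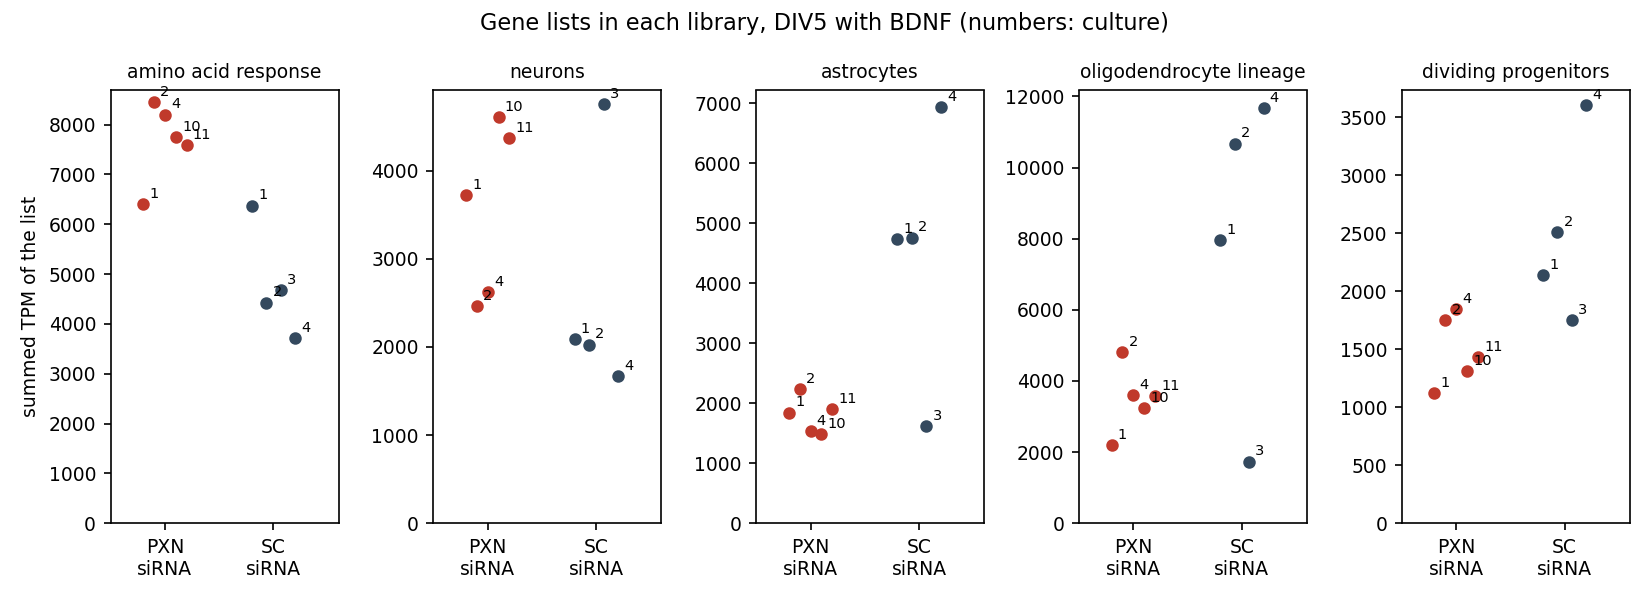
Summed TPM (y axis) of 5 gene lists in the 9 libraries at DIV5 with BDNF, red for paxillin siRNA and dark blue for SC siRNA, with the culture number beside each point. SC culture 3 lies with the paxillin siRNA libraries for astrocyte (1622 TPM), oligodendrocyte lineage (1729.8 TPM) and neuronal (4754 TPM) markers, and with the SC siRNA libraries for amino acid response genes (4672 TPM).

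The limma fit held all 48 short-read cortical libraries, so its estimate of spread came from more than the 9 compared here. Across the 14250 genes that averaged 1 TPM or more, 85 passed an adjusted p of 0.05 in this fit. With paxillin siRNA 17 of them rose (0.119% of the genes tested) and 68 fell (0.477%). The rises had a median log2 difference of 1.09, with paxillin siRNA over SC siRNA ratios of mean TPM from 1.48 to 2.77, and 4 of the 17 belonged to the amino acid response. The falls had a median of -0.52, with SC siRNA over paxillin siRNA ratios from 1.28 to 3.48. The groups did not overlap in 9 of the 17 rises and 50 of the 68 falls. Over all genes the median log2 difference was -0.10 and 63.5% of genes had a negative difference. TPM of the paxillin siRNA libraries were more concentrated in abundant genes, with 22.2% to 23.0% of the total in the 50 most abundant genes against 20.1% to 21.4% with SC siRNA.

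The count of 85 depended on the libraries and on the fit. It was 4, of which 3 were higher, after TPM were rescaled by median ratios, which moved the median difference of all genes to -0.01, and it was 0 in a fit of the 9 libraries alone (2722 genes at unadjusted p under 0.05). It was 0 without paxillin siRNA culture 1 (1828 at unadjusted p), 13 without culture 2, 15 without culture 10, 3 without culture 11, 34 without SC culture 1, 0 without SC culture 2 (1790 at unadjusted p), 0 without SC culture 4 (1220 at unadjusted p) and 1297 without SC culture 3, always by limma. All 85 genes kept the direction of their difference under each of these settings.

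The column names carry library numbers, which were sorted here into 3 series that the labels do not name. Some numbers occur in both series B and series C, so the numbers alone do not separate B from C. Series A holds cultures 1 and 2 of either siRNA, and B paxillin siRNA culture 4 with SC cultures 3 and 4. Series C holds paxillin siRNA cultures 10 and 11 with no control. Results by series rest on this grouping. With a term for the series in the fit, 1819 genes were called, 579 higher and 1240 lower, among them all 85, and within series A alone 2582 were called, among them 82 of the 85. Of the called genes, 17 of 17 rises and 68 of 68 falls had the same direction within series A and within series B, though these are the libraries that gave the calls.

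**Figure D2:**
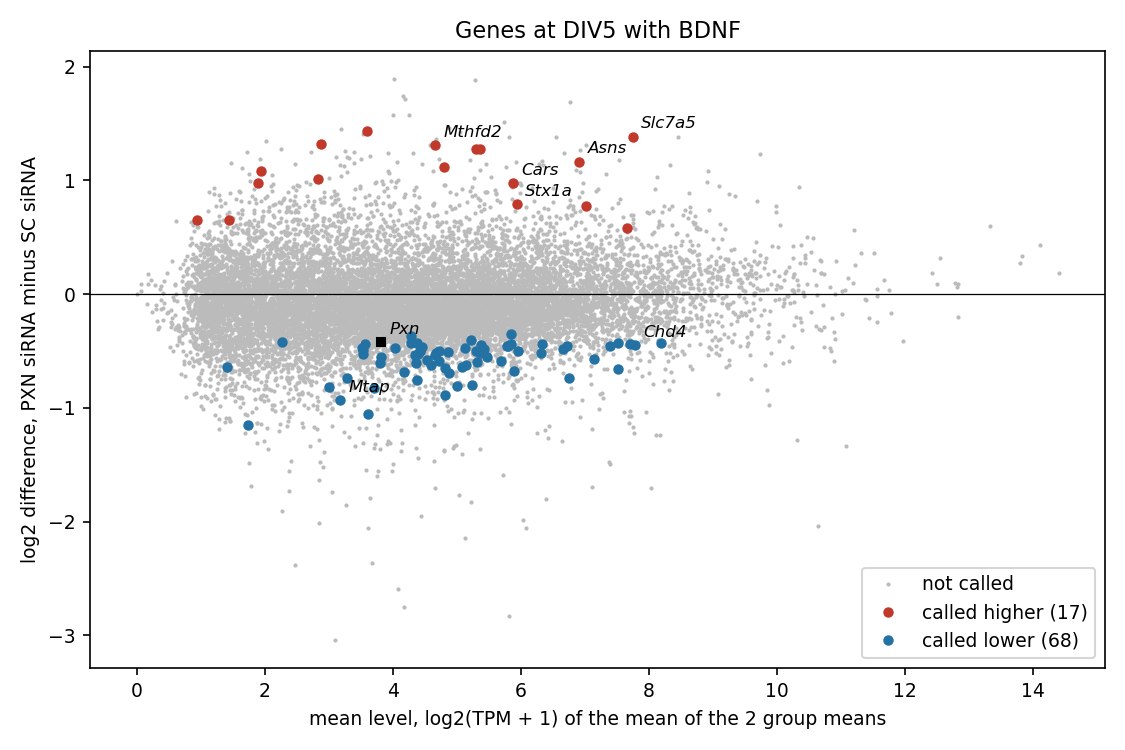
Each point is 1 of 14250 genes at DIV5 with BDNF, with its mean level as log2(TPM + 1) on the x axis and the log2 difference, paxillin siRNA minus SC siRNA, on the y axis. Coloured points passed an adjusted p of 0.05 (17 higher in red, 68 lower in blue), and the black square is Pxn at -0.42.

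The 4 amino acid response genes that rose were Slc7a5, Mthfd2, Asns and Cars. Slc7a5 (chromosome 8, 121881146 to 121907686), the transporter that brings large neutral amino acids into the cell, was at 280.4, 289, 260.2, 380.5 and 301 TPM in cultures 1, 2, 4, 10 and 11 with paxillin siRNA and at 193, 102, 159 and 54.2 TPM in SC cultures 1 to 4. Every paxillin siRNA library was above every SC siRNA library, and SC culture 4 was the lowest. The log2 difference was 1.38 ± 0.34 (SE; adjusted p = 0.0465), a ratio of mean TPM of 2.38.

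Mthfd2 (chromosome 6, 83305704 to 83326011), a mitochondrial enzyme of folate one-carbon metabolism, was at 30.4, 35.5, 32.9, 39.2 and 35.7 TPM with paxillin siRNA and at 19.4, 12.3, 17.0 and 7.64 TPM with SC siRNA. The groups did not overlap and the paxillin siRNA libraries lay close together. The log2 difference was 1.31 ± 0.31 (SE; adjusted p = 0.0402). Asns (chromosome 6, 7675165 to 7693209), asparagine synthetase, was at 170.3, 156, 149, 178 and 157 TPM with paxillin siRNA and at 94.5, 66.1, 114 and 36.5 TPM with SC siRNA. Again SC culture 4 was lowest and no library of one group reached the other, with a log2 difference of 1.17 ± 0.27 (SE; adjusted p = 0.0402).

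Cars (chromosome 7, 143557230 to 143600090), which charges tRNA with cysteine, was at 75.5, 77.7, 68.4, 81.02 and 77.6 TPM with paxillin siRNA and at 53.2, 36.1, 48.3 and 22.5 TPM with SC siRNA. The groups were separate, with a log2 difference of 0.98 ± 0.23 (SE; adjusted p = 0.0402). Within series A the log2 differences of Slc7a5, Mthfd2, Asns and Cars were 1.02, 1.04, 1.03 and 0.79, and within series B they were 1.48, 1.44, 1.19 and 1.03. After rescaling by median ratios the log2 differences were no smaller, at 1.48, 1.40, 1.26 and 1.07, and the adjusted p was 0.0570, 0.0563, 0.0520 and 0.0520. In the fit of the 9 libraries alone each had an adjusted p of 0.184. When 1 library was left out, the call was lost in 7 of 9 fits for Slc7a5 and Mthfd2 and in 6 of 9 for Asns and Cars, with adjusted p up to 0.490 without SC culture 4, and it was kept by all 4 without SC culture 1 and without SC culture 3. With the series term all 4 kept it, with adjusted p from 0.00400 to 0.00453.

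**Figure D3:**
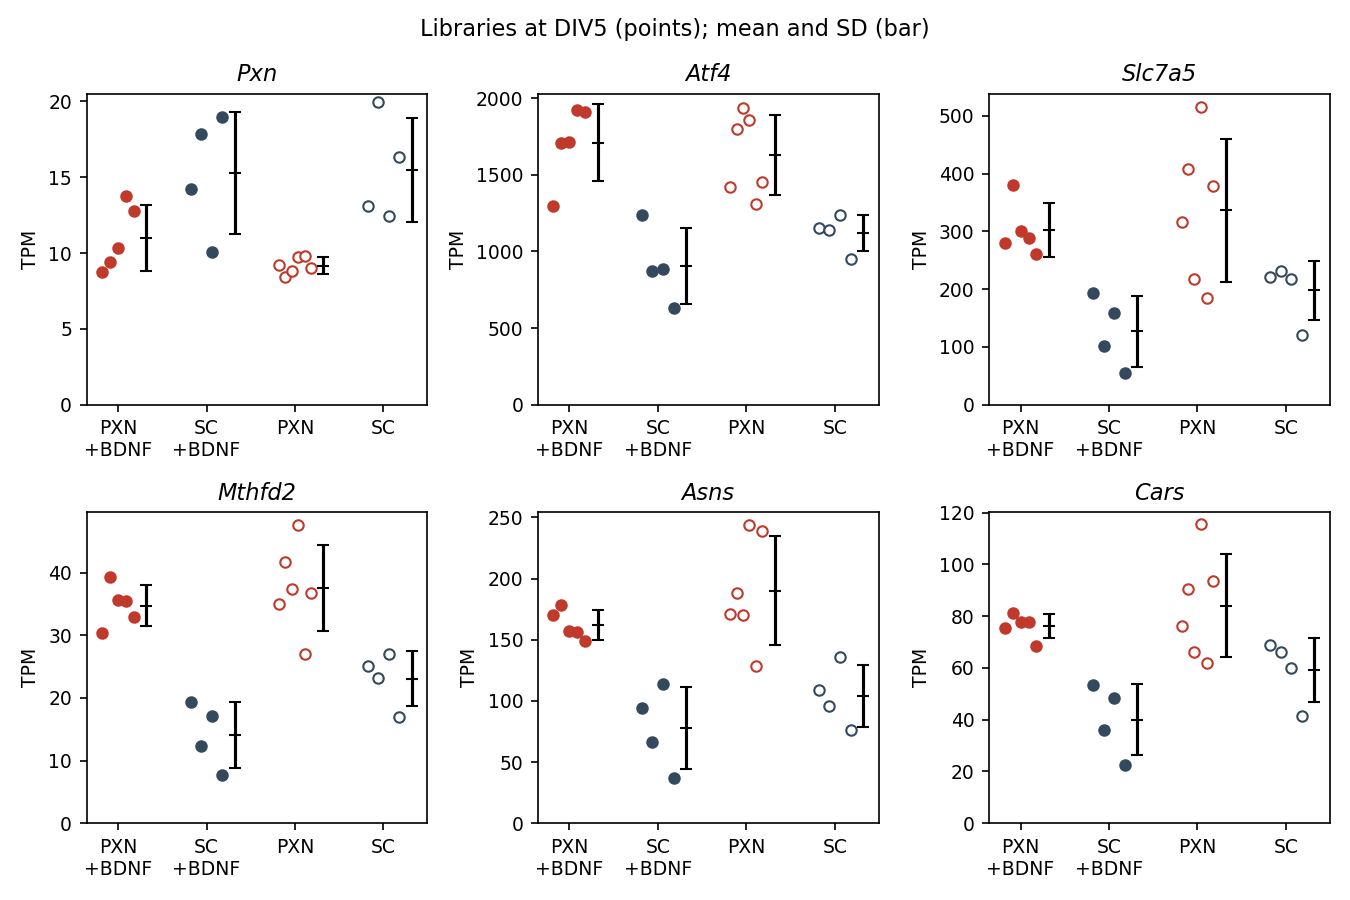
TPM (y axis) of Pxn, Atf4 and the 4 called amino acid response genes in each library at DIV5, red for paxillin siRNA and dark blue for SC siRNA, filled with BDNF and open without, with the mean and SD as a black bar. With BDNF the groups are separate for every gene shown but Pxn, whose SC siRNA libraries range from 10.0 to 19.0 TPM.

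The list as a whole showed a difference in the same direction. Of its 56 genes, all tested, 51 had a positive log2 difference and the median was 0.54, against a median of -0.10 over all genes. Only the 4 genes named above passed the adjusted p (0.119% of all genes were called higher) and none was called lower. At unadjusted p under 0.05 the list had 26 genes higher and 0 lower, where 5.14% of all genes were higher and 13.5% lower. The groups did not overlap, with paxillin siRNA higher, in 12 of the 56 genes, against 0.688% of all genes, and in 0 with paxillin siRNA lower, against 6.11%. The list was written from general knowledge with earlier results on these samples known, so its direction is not independent evidence.

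Summed over the list, the level was 6401, 8447, 8197, 7745 and 7592 TPM in cultures 1, 2, 4, 10 and 11 with paxillin siRNA and 6372, 4425, 4672 and 3718 TPM in SC cultures 1 to 4. The groups did not overlap, though SC culture 1 lay just below the lowest paxillin siRNA library. SC culture 3 was below all of them at 4672 TPM, and its astrocyte marker sum (1622 TPM) was in their range, its oligodendrocyte lineage sum (1729.8 TPM) under it and its neuronal sum (4754 TPM) over it. Without SC culture 3 the list had a median of 0.61, 48 positive genes and 11 called. With the series term the median was 0.71, with 51 positive and 28 called, and within series A alone 0.36, with 47 positive and 11 called. Of all 14250 genes, 1297, 1819 and 2582 were called in these settings, in that order. Within series A the list's share called was thus near that of all genes when both directions are counted together. Of the 2582 genes called there, 838 were higher and 1744 lower, and the list's 11 were not counted by direction. With a term for the astrocyte markers in the fit, a setting chosen after the data were seen, the median was 0.31, 50 genes were positive and 2 were called, Mthfd2 and Asns. With TPM rescaled by median ratios the median was 0.63 and 53 genes were positive, with 0 called.

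Among the 19 regulators and stress genes of the list 18 were positive, at a median of 0.72, and 0 passed the adjusted p in limma. At unadjusted p under 0.05, 7 were higher, where 5.14% of all genes were. Atf4 itself was at 1296, 1923, 1911, 1709 and 1711 TPM with paxillin siRNA and at 1235, 874, 884 and 631 TPM with SC siRNA. The groups did not overlap, but SC culture 1 came close to paxillin siRNA culture 1, and the log2 difference of 0.94 ± 0.30 (SE) had an adjusted p of 0.102 (1.11 and 0.0166 with the series term). Chac1, which breaks down glutathione, was at 104, 191, 175, 151 and 174 TPM against 123, 50.3, 36.6 and 22.5 TPM, overlapping through culture 1 (log2 difference 1.69 ± 0.51 SE, adjusted p = 0.0873, and 1.97 with 0.0134 under the series term). Gdf15, a secreted stress factor with the largest difference of the list, varied from 1.31 to 95.5 TPM among the paxillin siRNA libraries alone (1.74, adjusted p = 0.401, and 2.95 with 0.0320 under the series term). The series term called 1819 of all 14250 genes. In 20 alternatives Atf4, Chac1 and Gdf15 stayed uncalled in 18, 18 and 16. Gadd45a, a growth arrest gene, was the exception at -0.49.

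Of the 14 enzymes of amino acid synthesis and one-carbon metabolism 12 were positive, at a median of 0.49. Beside Mthfd2 and Asns, Aldh1l2, another mitochondrial folate enzyme, had groups that did not overlap, at 52.2 to 70.6 TPM with paxillin siRNA, against 24.8 to 51.2 TPM with SC siRNA (log2 difference 0.69, adjusted p = 0.186). Phgdh, the entry enzyme of serine synthesis, was at 0.06 and Gpt2, an alanine transaminase, at -0.06. Of the later serine synthesis enzymes, Psat1 was at 0.26 and Psph, the last step, at 0.50 (adjusted p = 0.127), so that the enzymes differed unevenly.

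The 10 transporters had the highest median of the list's groups, 0.96, with 9 positive. Slc3a2, the heavy chain that pairs with Slc7a5 and Slc7a11, was at 329, 377, 355, 419 and 353 TPM with paxillin siRNA, against 326, 166, 159 and 118 TPM with SC siRNA, a difference of 1.03 ± 0.37 (SE, log2) with an adjusted p of 0.140. Slc7a1, the cationic amino acid transporter, was at 1.03 and Slc1a4, which carries neutral amino acids, at 0.90, with adjusted p of 0.0617 and 0.0863. In contrast, Slc7a11, the cystine transporter, was at 0.04, and Slc38a2, a sodium-coupled neutral amino acid transporter, at -0.17, so that the listed transporters were not alike.

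Of the 12 listed cytosolic tRNA synthetases and the tRNA export factor Xpot, 12 of 13 were positive, at a median of 0.46, and 5 had groups that did not overlap with paxillin siRNA higher (Cars, Mars1, Aars, Gars and Lars), against 0.688% of all genes. Mars1, for methionine, was at 160 to 198 TPM with paxillin siRNA, against 78.96 to 136 TPM with SC siRNA (0.66, adjusted p = 0.0638). Wars, for tryptophan, was the exception at -0.15. As a contrast chosen after the values were seen, 8 cytosolic synthetases outside the list had a median of -0.03, with 2 positive and 0 called, and 16 mitochondrial synthetases a median of -0.08, with 5 positive and 0 called. The 8 other cytosolic synthetases summed to 499.5 to 559.7 TPM with paxillin siRNA, against 506 to 529 TPM with SC siRNA, so that their total level was alike in range.

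**Figure D4:**
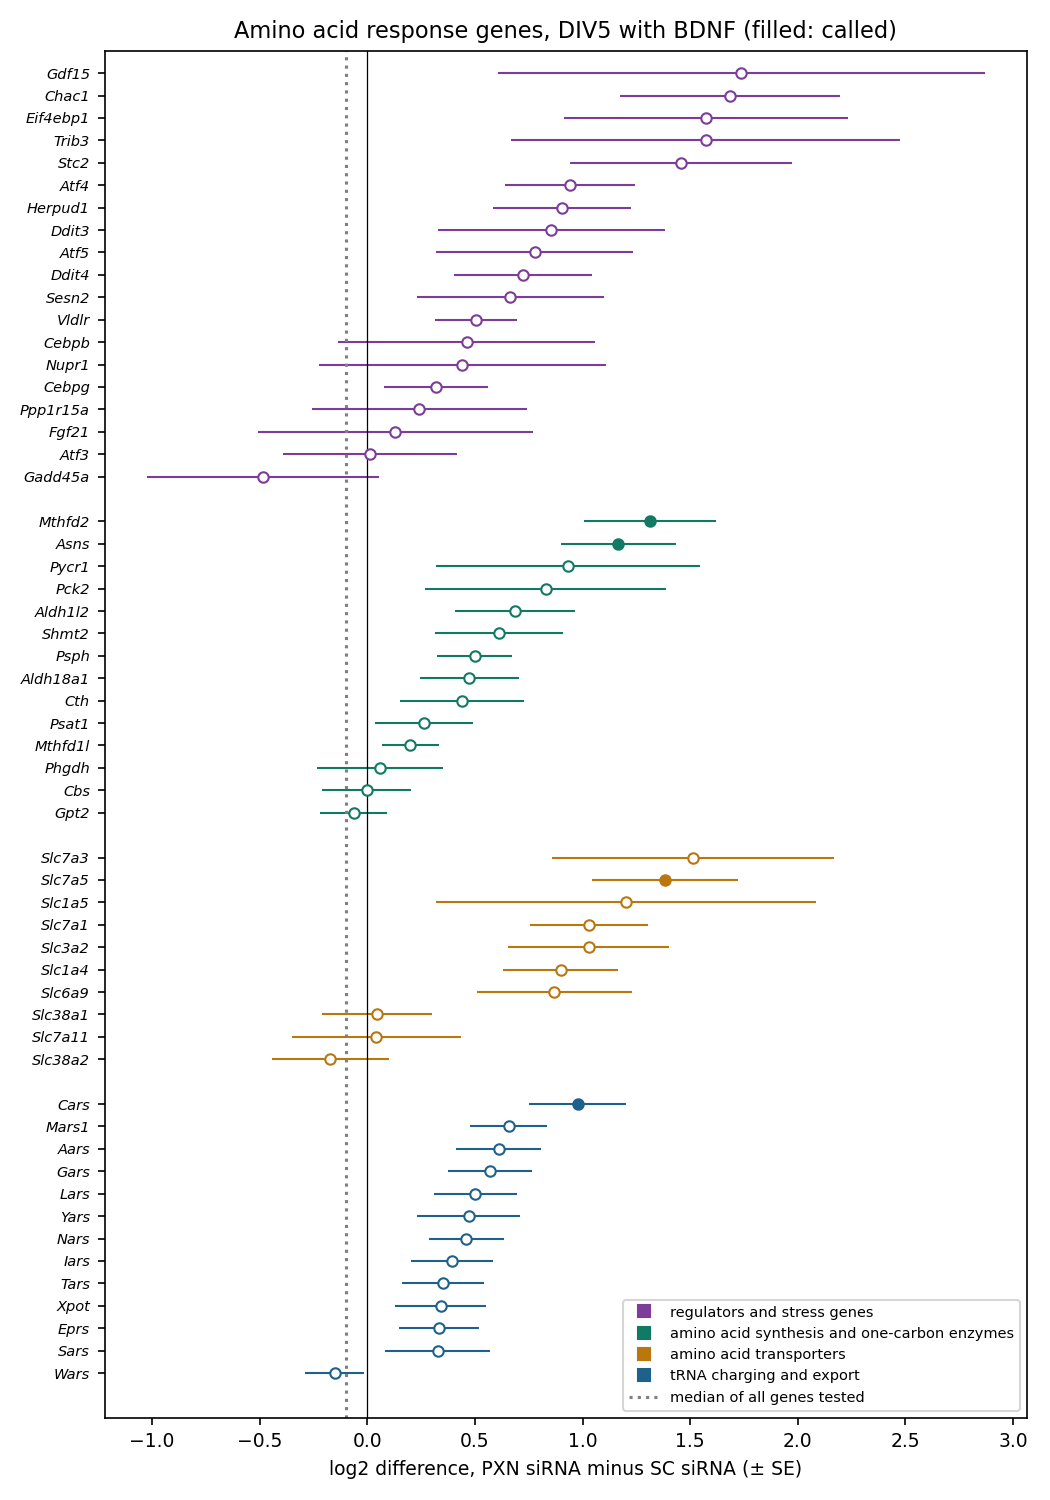
Log2 difference, paxillin siRNA minus SC siRNA, with its SE (x axis) for the 56 amino acid response genes at DIV5 with BDNF, coloured by role and filled where called. Of the 56, 51 lie above 0 and 4 are called, while the dotted line shows the median of all genes at -0.10.

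Outside the lists, 5 rises had groups that did not overlap. Optc, opticin of the extracellular matrix, was at 3.19 to 5.21 TPM with paxillin siRNA, against 0.881 to 1.96 TPM with SC siRNA (log2 difference 0.98, adjusted p = 0.0256). Ccdc107 was at 152 to 185 TPM against 69.5 to 114 TPM (0.78, adjusted p = 0.0272), Tmem266, a membrane protein gene, at 2.08 to 2.88 TPM against 0.716 to 1.41 TPM (0.65), and the uncharacterized Gm41842 at 3.6005 to 5.39 TPM against 0.682 to 2.44 TPM (1.09). Brd3os, transcribed opposite Brd3, was at 233 to 256 TPM against 130.1 to 202 TPM (0.58). Whether strand was used in quantification is not given in the sources used here, so reads of Brd3os and of an overlapping neighbour may not be separable.

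Stx1a, a syntaxin of the presynaptic membrane, rose as the single called gene among 38 synaptic and maturation genes, at 84.1, 65.98, 58.0, 83.9 and 84.7 TPM in cultures 1, 2, 4, 10 and 11 with paxillin siRNA and 45.4, 36.8, 70.6 and 27.7 TPM with SC siRNA. SC culture 3, rich in neuronal transcripts, overlapped the paxillin siRNA libraries, and the log2 difference was 0.79 ± 0.19 (SE; adjusted p = 0.0442). The list had a median of 0.20 with 30 positive genes, but within series B a median of -0.06 with 13 positive. SC culture 3 was likewise the single SC siRNA library to overlap in the other 7 called rises with overlap, which were Nwd2 (1.43), LOC115488373 (1.32), Lin7b (1.28), Reep6 (1.27), Rtn4r (1.12), Bean1 (1.01) and Galnt3 (0.65). Rtn4r, the receptor for myelin-derived Nogo, was at 24.2 to 52.8 TPM with paxillin siRNA and at 15.7, 12.98, 31.1 and 9.19 TPM in SC cultures 1 to 4.

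Among the genes that fell, the lowest adjusted p belonged to Uck2 (chromosome 1, 167222895 to 167285933), a kinase that salvages uridine and cytidine. It was at 26.6, 20.9, 22.9, 29.4 and 27.9 TPM with paxillin siRNA and at 34.1, 46.8, 34.5 and 47.2 TPM with SC siRNA, so that the groups were separate (log2 difference -0.64 ± 0.11 SE, adjusted p = 0.0244). Mtap (chromosome 4, 89137370 to 89181090), which recycles methylthioadenosine to adenine and methionine, was at 4.35, 5.75, 5.03, 5.67 and 4.80 TPM against 9.21, 13.6, 6.79 and 14.7 TPM (-0.93 ± 0.20 SE, adjusted p = 0.0376). It was the single called gene of 20 in the list of purine and methylthioadenosine metabolism, whose median was -0.05. Slc26a2, a sulfate transporter, was at 4.39 to 5.07 TPM against 6.70 to 12.1 TPM (-0.81), and Snx18, an endosomal sorting nexin, at 23.6 to 28.3 TPM against 31.6 to 78.9 TPM (-0.79).

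The other large falls whose groups did not overlap were in zinc finger genes and in genes of diverse function. Zfp326, Zfp24 and Zfp740 fell by 0.76, 0.73 and 0.66 on the log2 scale, and Zfp740 was at 114 to 161 TPM with paxillin siRNA, against 177 to 279 TPM with SC siRNA. Cdc37l1, a relative of the kinase co-chaperone Cdc37, fell by 0.68 and Asf1a, a histone chaperone, by 0.61. Prps1l3 fell by 0.70, but it is a close relative of Prps1 and the reads of such copies may be split between them. The low-abundance predicted genes Gm29417 and Gm52138 fell by 1.15 and 0.64.

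Further falls are given by complex, in lists picked after the values were seen. Chd4 (chromosome 6, 125095980 to 125130591), the helicase of the NuRD repressor complex, was at 191, 166, 184, 189 and 192 TPM with paxillin siRNA and at 229, 255, 237 and 293 TPM with SC siRNA. These groups were separate with a narrow spread (-0.45 ± 0.10 SE, adjusted p = 0.0402). Mta2, a further NuRD subunit, was at 124 to 167 TPM against 204, 214, 164 and 256 TPM, overlapping through SC culture 3 (-0.43, adjusted p = 0.0402). Of 15 NuRD genes 2 were called lower, where 0.477% of all genes were, and 12 were negative, where 63.5% of all genes were, at a median of -0.16, while the subunit paralogs Chd5 (0.34), Mta1 (0.25) and Mta3 (0.21) were the 3 with positive values. 

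In the BAF remodelling complex, Actl6a fell (-0.68, adjusted p = 0.0376) and Smarce1 fell (-0.45), the latter at 79.3 to 98.5 TPM with paxillin siRNA, against 107 to 143 TPM with SC siRNA. Actl6a, the subunit used in progenitors, was at 10.9, 15.6, 13.1, 12.5 and 11.7 TPM with paxillin siRNA and at 19.6, 23.7, 15.02 and 27.4 TPM with SC siRNA, so SC culture 3 fell within the paxillin siRNA range. Its neuronal counterpart Actl6b had the opposite sign, at 61.7 to 76.6 TPM against 55.5, 45.0, 71.7 and 37.0 TPM (0.42, adjusted p = 0.154). Of 24 tested BAF genes 2 were called lower, against 0.477% of all genes, and 18 were negative, against 63.5%, at a median of -0.18. The progenitor and neuronal marker sums given above differed in the same directions, and their part in the BAF values was not tested.

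Further called falls with groups that did not overlap were the variant histone gene Macroh2a1 (-0.48), the DNA repair enzyme gene Parp1 (-0.49), the topoisomerase gene Top1 (-0.56) and the SUMO protease gene Senp1 (-0.48). Genes that handle RNA were the splicing factor Prpf38b, at 172 to 188 TPM with paxillin siRNA, against 229.8 to 249.4 TPM with SC siRNA (-0.44), the m6A reader Ythdf2 (-0.47), the decapping factor Dcp1a (-0.44), the stress granule protein G3bp1 (-0.44), the ribosome biogenesis factor Nol11 (-0.46) and Rbm45 (-0.41). The nucleoporins Nup35 (-0.49) and Nup50 (-0.46) fell, and so did Vcp (-0.43), the segregase that unfolds ubiquitinated proteins.

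Tubgcp4 (chromosome 2, 121170643 to 121198770) and Tubgcp5 also fell, and they are subunits of the gamma-tubulin ring complex that nucleates microtubules. Tubgcp4 was at 9.93, 10.4, 10.0, 10.6 and 9.21 TPM with paxillin siRNA and at 15.1, 14.4, 16.5 and 17.1 TPM with SC siRNA. Tubgcp5 was at 7.80 to 9.30 TPM against 11.5 to 14.1 TPM, with no SC siRNA library, culture 3 included, near the paxillin siRNA range. The log2 differences were -0.60 ± 0.12 and -0.52 ± 0.11 (SE; adjusted p = 0.0256 for each). Of 10 genes of the complex, a list picked after these values were seen, 5 had separate groups with paxillin siRNA lower (the others being Tubgcp3, Tubgcp6 and Nedd1), against 6.11% of all genes, while Tubg2, one of the gamma-tubulins, was at 0.65 (adjusted p = 0.169) and Tubg1 at -0.05.

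Of 36 tested focal adhesion genes, the group to which paxillin belongs, only Crkl passed the test, as a fall, where 0.477% of all genes were called lower. Crkl (chromosome 16, 17451985 to 17487440), an SH2 and SH3 adaptor that binds tyrosine-phosphorylated paxillin, was at 20.7, 26.6, 32.6, 25.8 and 28.3 TPM with paxillin siRNA and at 41.8, 44.2, 29.1 and 54.1 TPM with SC siRNA. SC culture 3 lay within the paxillin siRNA range (-0.62 ± 0.14 SE, adjusted p = 0.0397). The list had 27 negative genes, where 63.5% of all genes were negative, and a median of -0.19. Tns3, a tensin, was at -1.32 (adjusted p = 0.117) and the integrin subunit Itga3 at 0.92 (adjusted p = 0.110). Git1, the most abundant member and a partner of paxillin, was at 0.59 (adjusted p = 0.173). With the series term Tns3, Itga3 and Git1 passed, at -1.38, 1.19 and 0.86 (adjusted p = 0.0454, 0.00525 and 0.00318). That term called 1819 of all 14250 genes, and the 3 genes stayed uncalled in 15, 15 and 16 of 20 alternatives.

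Splicing factors were examined because nuclear paxillin was studied for its bearing on splicing. Of 39 tested, 0 passed the adjusted p in limma and 32 were negative, where 63.5% of all genes were, at a median of -0.24. Of the 39, 14 had an unadjusted p under 0.05, 12 of them lower and 2 higher, where 13.5% of all genes were lower and 5.14% higher. Their summed level was 5931, 6596, 6127, 6722 and 6693 TPM in cultures 1, 2, 4, 10 and 11 with paxillin siRNA and 7599, 8273, 8147 and 8567 TPM with SC siRNA, so that all SC siRNA libraries, culture 3 included, were above all paxillin siRNA libraries. The groups were separate, with paxillin siRNA lower, in 11 of the 39, against 6.11% of all genes. Srsf3, an SR protein, was at 151 to 234 TPM against 284 to 359 TPM (-0.70 ± 0.23 SE, adjusted p = 0.110), Srsf6 at 434 to 571 TPM against 674 to 805 TPM (-0.62, adjusted p = 0.102), and Srsf2, the most abundant, at 720.2 to 801 TPM against 818 to 980.3 TPM (-0.28, adjusted p = 0.335). With the series term Srsf3 and Srsf6 passed, at -0.84 and -0.64 (adjusted p = 0.0145 and 0.0412). That term called 1819 of all 14250 genes, and Srsf3 and Srsf6 stayed uncalled in 16 and 15 of 20 alternatives.

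U2af2, which recognizes the polypyrimidine tract, was at -0.27 (adjusted p = 0.174). It passed with the series term (-0.34, adjusted p = 0.0245), within series A alone (-0.47, adjusted p = 0.0193) and without SC culture 3 (-0.37, adjusted p = 0.0286). These settings called 1819, 2582 and 1297 of all 14250 genes, and U2af2 stayed uncalled in 15 of 20 alternatives. Paxillin siRNA culture 1, which series A includes, was the lowest of its group for U2af2, at 99.0 against 135 to 139.9 TPM. Without that library U2af2 was at -0.17 (adjusted p = 0.458 in limma), and after rescaling by median ratios at -0.17 (adjusted p = 0.502). The neuronal splicing regulators Rbfox2 (0.13), Nova2 (0.29) and Nova1 (-0.58) did not pass, with adjusted p of 0.665, 0.345 and 0.309. Among targets of regulated splicing, the summed gene levels of Snap25 (0.34), Ank2 (0.53), Ank3 (0.34), Grm5 (0.22) and Grin1 (-0.15) did not pass either. In 20 alternatives Grin1 and Grm5 each changed direction in 3, and Grin1 passed in 1. The values just given are levels over all isoforms, and exon inclusion was not analysed here.

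Genes induced by activity and ERK signaling, on which BDNF acts, had a median of 0.02, with 18 of 35 positive and 0 called in limma. At unadjusted p under 0.05, 1 of them was higher and 1 lower, where 5.14% and 13.5% of all genes were. The 21 tested neurotrophin receptor and signaling genes had a median of 0.01 with 0 called (1 higher at unadjusted p). Dusp4, a phosphatase that limits ERK, was at 29.3 to 46.2 TPM with paxillin siRNA and at 116, 75.1, 43.7 and 77.7 TPM with SC siRNA (-0.94, adjusted p = 0.155). It was at -1.18 (adjusted p = 0.0418) without SC culture 3, the control that lay in the paxillin siRNA range. Of the receptors, Ntrk3 was at 4.93 to 9.29 TPM against 3.34 to 6.86 TPM (0.57, adjusted p = 0.106, and 0.61 with 0.0142 under the series term). For 18 genes of immature neurons and axon growth the median was 0.23 and 0 were called (4 at unadjusted p, all higher, where 5.14% of all genes were). Gap43, the growth cone protein, was at 116, 63.5, 73.4, 138 and 132 TPM with paxillin siRNA and at 32.5, 34.2, 126 and 26.0 TPM with SC siRNA, once more with SC culture 3 among the paxillin siRNA values. It passed without SC culture 3 (1.67, adjusted p = 0.00210) and with the series term (0.98, adjusted p = 0.0443). Leaving out SC culture 3 removes the control that overlapped, so no conclusion is drawn from it for Gap43 or Dusp4. These settings called 1297 and 1819 of all 14250 genes. In 20 alternatives Dusp4, Ntrk3 and Gap43 stayed uncalled in 16, 17 and 15.

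The siRNA difference was next compared with that in the absence of BDNF, to ask whether it depended on the neurotrophin. Without BDNF the siRNA and the series of library numbers are largely confounded, since all 4 SC siRNA libraries belong to series B, against 2 of the 6 paxillin siRNA libraries, which also came 2 from series A and 2 from series C. Without BDNF, 0.8% of the genes tested were called higher with paxillin siRNA and 5.38% lower. All 85 genes called with BDNF had the same direction without it, where 79.3% of all genes did, and 59 of them were called there too, 6 of the 17 rises and 53 of the 68 falls. The test of the difference between these differences called 0 genes in limma, and 116 had an unadjusted p under 0.05 (0.814%). The 68 falls had a median of -0.52 with BDNF and -0.47 without, and the 17 rises a median of 1.09 with BDNF and 0.68 without. These genes were picked because they passed with BDNF, which favours larger differences there. The share of signs over all genes, most of them with smaller differences, is not a matched one. Within series B the rises had a median of 0.50 without BDNF, with 17 of 17 positive, and the falls a median of -0.43, with 66 of 68 negative, while that series alone called 0 genes in limma (1044 at unadjusted p under 0.05) and the series term 3027 genes.

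**Figure D5:**
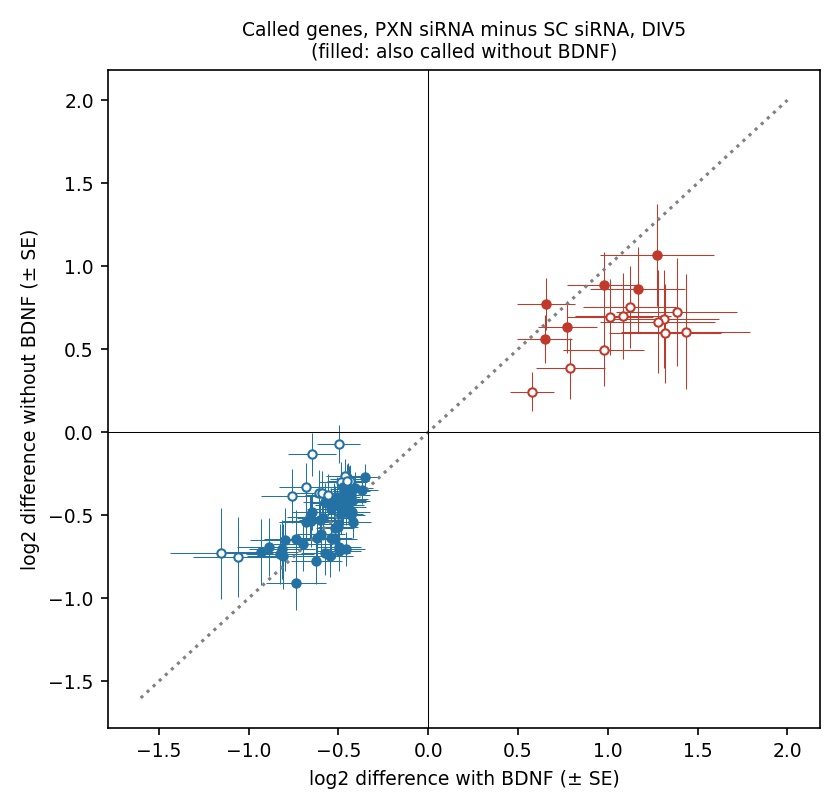
Log2 difference, paxillin siRNA minus SC siRNA, with SE, of the 85 genes called at DIV5 with BDNF (x axis), against the same without BDNF (y axis), red for rises and blue for falls, filled where also called without BDNF (59 genes). The dotted line marks equal differences. All 85 have the same sign on either axis.

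Of the amino acid response genes, 39 of 56 were positive without BDNF, at a median of 0.17, and 1 was called higher and 1 lower, the latter being Gpt2 (-0.55). Asns was that called rise, at 190.1 ± 44.3 TPM (SD, n = 6) under paxillin siRNA against 104 ± 25.1 TPM (SD, n = 4) under SC siRNA (0.86 ± 0.26 SE, adjusted p = 0.0387). Slc7a5 was at 0.72, Mthfd2 at 0.68 and Cars at 0.49 there, none called. Within series B the list had a median of 0.09 with 33 positive without BDNF, and Asns was at 0.78. With the series term the list had a median of 0.36 with 44 positive without BDNF. Asns (1.01, adjusted p = 0.0115 in limma) and Mthfd2 (0.89, 0.0378) were then called, and Slc7a5 (0.85, 0.0671) and Cars (0.58, 0.0680) were not. That term called 3027 of all 14250 genes without BDNF. The interaction with BDNF was 0.66 for Slc7a5 (unadjusted p = 0.168), 0.63 for Mthfd2 (0.146), 0.30 for Asns (0.417) and 0.48 for Cars (0.132), and of the whole list Gpt2 alone had an unadjusted p under 0.05, so that a larger difference with BDNF was not shown for these 4 genes. Without BDNF, Pxn averaged 9.17 ± 0.541 TPM (SD, n = 6) under paxillin siRNA against 15.5 ± 3.45 TPM (SD, n = 4) under SC siRNA (-0.67 ± 0.18 SE, adjusted p = 0.0186), and its interaction was 0.25 (unadjusted p = 0.325).

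At DIV3 with BDNF, a day after the siRNA, 18 of 56 amino acid response genes were positive, at a median of -0.11. Within series A, which holds 2 of the 4 paxillin siRNA and 2 of the 3 SC siRNA libraries of that day, 34 were positive, at a median of 0.11, so the direction turned with the libraries used. Slc7a5 averaged 248 TPM with paxillin siRNA, against 258 TPM with SC siRNA at DIV3, Asns 159.9 and 166 TPM, Mthfd2 26.3 and 27.0 TPM and Cars 66.1 and 74.2 TPM. The DIV5 difference minus the DIV3 difference called 0 genes over the whole table in limma (554 at unadjusted p under 0.05). In the list 16 of 56 genes had a larger value at DIV5 at unadjusted p under 0.05, against 1.45% of all genes, and none passed adjustment (adjusted p = 0.991 for Slc7a5, Mthfd2, Asns and Cars). Pxn averaged 10.5 TPM with paxillin siRNA, against 9.43 TPM with SC siRNA at DIV3, so that its mean was not lower on that day (0.13 on the log2 scale within series A). Of the 85 called genes, 72 had the same sign at DIV3, where 61.5% of all genes did.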

How the data were processed

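RNA of 9 libraries was measured by paired-end sequencing of polyadenylated RNA. Per the labels and the submitters' processing notes, reads were aligned to GRCm38 with STAR 2.7.10 and quantified with RSEM 1.3.3, and the authors deposited 1 table of TPM per gene and library. TPM sum to the same total in every library, so the depth behind each value is unknown and no counting interval was computed. The long-read table was not used here. From the TPM, log2(TPM + 1) was fitted with limma 3.58.1 (R 4.3.3, lmFit and eBayes with trend) in 1 model of 13 conditions and 48 libraries, over the 14250 genes that averaged 1 TPM or more. P-values were adjusted by Benjamini-Hochberg, and genes under 0.05 are called. Fold changes are on the log2(TPM + 1) scale, which understates changes of low genes. The script was tested on simulated data. Pxn was tested by exact permutation. Named were Pxn, genes the study follows, called genes whose groups do not overlap (the 12 largest rises, of which 9 existed, and the 12 largest falls), called members of the gene lists, and in each list the 2 genes with the largest difference and the most abundant gene; other genes named in the text, among them those of chromatin, RNA handling and the gamma-tubulin ring and further members of the amino acid list, were chosen after their values were seen. The members and gene lists were chosen with earlier results of these data known. Alternatives changed the pseudocount, filter, scaling, libraries in the fit, replicate block and library series. Positions are from RefSeq for GRCm38.p6, matched by symbol.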

Additional observations from a re-analysis of the deposited data

Results flagged for a closer look

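A library far from the others of its group, by Dixon's criterion, was found in 16 of 236 groups of values examined (the named genes and the summed lists in each siRNA group). Chance flags about 1 in 20 such groups. SC siRNA culture 3 accounted for 8 of the 16: Gap43 was at 126 TPM against 26.0 to 34.2 TPM in the other SC siRNA libraries, Tubb2b at 13089.5 against 6250.4 to 7386 TPM, Tubb3 at 1677 against 828 to 892 TPM, Jun at 443 against 668 to 711 TPM, Hmgcs1 at 1668 against 328 to 386 TPM and Fn1 at 52.4 against 3.35 to 8.98 TPM, while the neuronal markers summed to 4754 against 1668 to 2085 TPM and the cholesterol synthesis genes to 4393 against 1659 to 2067 TPM. Of the other SC siRNA libraries, culture 2 stood apart for Col1a1, at 30.9 against 2.76 to 5.24 TPM, and for Rps7, at 832 against 704 to 723 TPM, and culture 4 for Asf1a, at 29.2 against 21.4 to 22.5 TPM.

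With paxillin siRNA, culture 1 stood apart for U2af2, at 99.0 against 135 to 139.9 TPM, for Tmem266, at 2.88 against 2.08 to 2.23 TPM, for Zfp24, at 65.9 against 80.3 to 84.2 TPM, and for Prps1l3, at 17.1 against 21.3 to 22.9 TPM. Culture 4 stood apart for Cxcl10, at 36.6 against 0.138 to 9.09 TPM.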

How the results depend on the processing

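The count of 85 genes called by limma became 4 after rescaling by median ratios (75% of them higher, against 20% before), 0 in the fit of the 9 libraries alone and 0 in that of the 4 DIV5 groups (2918 at unadjusted p under 0.05), 163 without cultures 10 and 11, 1819 with a term for the series of library numbers (31.8% higher), 2582 within series A, and 53 with a term for the astrocyte markers, which was chosen after the data were seen and kept 32 of the 85. Leaving out 1 library at a time gave 0 to 1297 genes, with 0, 13, 57, 15 and 3 without paxillin siRNA cultures 1, 2, 4, 10 and 11 and 34, 0, 1297 and 0 without SC cultures 1 to 4. With the culture number as a replicate block the count was 3131 in the fit of all conditions and 3301 in cultures 1, 2 and 4 alone, with 33 and 17 of the 56 amino acid response genes called. The block called U2af2 (adjusted p = 0.0105 and 0.0465) and Nova1 (0.0265 and 0.0123) in these fits. It called Grin1 in cultures 1, 2 and 4 alone (-0.53, adjusted p = 0.0201) and not over all conditions (-0.48, adjusted p = 0.320). The deviations of same-numbered libraries correlated at 0.08, 0.37 and 0.35 for cultures 1, 2 and 4. For cultures 2 and 4 this was above every differently numbered pair, of which the highest was 0.24 (paxillin siRNA culture 10 with SC culture 3). Paxillin siRNA culture 1 correlated best with SC culture 3, at 0.22. The labels do not say that the numbers pair the samples and these values do not settle it, so the main fit was left unpaired. All 85 genes kept their direction under every alternative listed, but those genes lost the threshold in 958 of 1700 alternative values. The cause of these shifts was not tested. A pseudocount of 0.1 gave 76 genes and no filter 115, of which 75 and 72 were among the 85. Pxn ranged from -0.60 to -0.31 when 1 library was left out, with a replicate block it was -0.33 over all conditions (unadjusted limma p = 0.0659) and -0.51 in cultures 1, 2 and 4 (exact permutation p = 0.25, the smallest possible), and within series B it was -0.11. Without BDNF, 880 genes were called, 3027 with the series term and 0 in series B alone, both chosen after the data were seen. Both tests of an interaction called 0 genes under each alternative, replicate block included. Of the named genes not called, 142 of 1420 alternative values passed the threshold, 36 changed direction without passing, and Ncan reversed to -0.34 in series A. TPM without counts leave the precision of low genes unknown.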

Other observations

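Cholesterol synthesis genes had a positive difference in all 23 of the tested members, at a median of 0.55 against -0.10 over all genes, and 0 passed the adjusted p in limma (8 at unadjusted p under 0.05, all higher, where 5.14% of all genes were). Within the library series of paxillin siRNA culture 4 and SC cultures 3 and 4 the median was -0.27, with 9 of 23 positive, so that the direction turned. Hmgcs1, which makes the precursor of mevalonate, was at 1232, 504, 777, 1289 and 1041 TPM in cultures 1, 2, 4, 10 and 11 with paxillin siRNA and at 328, 386, 1668 and 342 TPM in SC cultures 1 to 4, and Mvd, a later enzyme, at 151, 75.1, 86.5, 204 and 173 TPM against 53.2, 68.9, 146 and 49.9 TPM. SC culture 3 had the highest Hmgcs1 of all 9 libraries. The neuronal marker sum was also highest in SC culture 3, and the part of cell composition was not tested.

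Of 18 tested interferon-stimulated genes 17 were negative, at a median of -0.57, with 0 called by limma (1 higher and 2 lower at unadjusted p, where 5.14% and 13.5% of all genes were). In the same series the median was 0.18, with 13 of 18 positive. Cxcl10, a chemokine, was at 5.80, 9.09, 36.6, 0.138 and 0.685 TPM with paxillin siRNA and at 66.96, 89.7, 0.525 and 247 TPM with SC siRNA (-2.83, adjusted p = 0.177), and SC culture 3 lay among the paxillin siRNA libraries. The 20 genes of the unfolded protein response, a neighbouring stress program that shares part of its regulators with the amino acid response, had a median of -0.26 with 14 negative and 0 called (2 lower at unadjusted p). Of all genes, 63.5% were negative and 13.5% lower at unadjusted p. The most abundant member of this response, Calr, a chaperone of the endoplasmic reticulum, was at 1067 to 1978 TPM with paxillin siRNA and 1606 to 1937 TPM with SC siRNA.

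Of 25 tested extracellular matrix genes 17 were negative, where 63.5% of all genes were, at a median of -0.40 with 0 called. At unadjusted p under 0.05, 1 was higher and 2 lower, where 5.14% and 13.5% of all genes were. Thbs1, a thrombospondin released by astrocytes, was at 4.11 to 8.54 TPM with paxillin siRNA and at 19.8, 37.8, 4.94 and 32.7 TPM with SC siRNA. Of 75 tested cytosolic ribosomal protein genes, whose copies can share reads, 66 were positive at a median of 0.18 with 0 called (0 at unadjusted p). The 2 tested genes of the mitochondrial genome were both positive and neither was called. Of 39 tested histone genes 28 were negative, where 63.5% of all genes were, at a median of -0.22 with 0 called (2 at unadjusted p). In the series of paxillin siRNA culture 4 the histone median was 0.13, with 22 positive.

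Sorted by the GC content of the longest annotated transcript into 5 bins of near equal size, genes had a median log2 difference of -0.17 at the lowest GC and of -0.00065 at the highest, with -0.13, -0.10 and -0.07 between. A transcript was found for 93.2% of the genes tested. Sorted by transcript length, the medians ran from -0.03 for the bin of the shortest to -0.13 for that of the longest.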
